A study of Homo sapiens with 2 samples.

Results

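The 29 genes described here make cholesterol, take it up and move it, or control the sterol-sensing transcription factors called SREBPs. They were chosen by name from a table of 25268 gene symbols. Of these names 28 were listed as such, and the sterol desaturase SC5DL was listed under its current RefSeq symbol, SC5D. Their messenger RNA was measured in C4-2B MDVR cells, a castration-resistant, enzalutamide-resistant prostate cancer line. One library came from cells given the vehicle DMSO and the other from cells given 20 µM Indocin (indomethacin, a cyclooxygenase inhibitor), each for 3 days. The line was kept in medium with 20 µM of the antiandrogen enzalutamide, which both groups share. Each group had 1 library of 1 resistant line, so no value below has a replicate error and no test could be made. The comparison therefore describes these 2 libraries.

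Cholesterol is built from acetyl-CoA through mevalonate, isoprenyl diphosphates and squalene, and then through a series of sterols. SREBP2, the product of SREBF2, is made as a precursor in the membrane of the endoplasmic reticulum (ER). SCAP carries it to the Golgi for cleavage when sterols are scarce, and INSIG proteins hold SCAP back when sterols are plentiful. The freed factor enters the nucleus and switches on genes of cholesterol synthesis and uptake, and SREBP1, the product of SREBF1, acts more on fatty acid genes. In prostate cells cholesterol is also the starting material of androgens made within the tumour.

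Values are FPKM (fragments per kilobase of transcript, scaled to library size), which puts genes of different length on a common scale. Levels also depend on the annotation used and on reads shared between genes, so comparisons of level between genes are approximate. The log2 ratio is log2((Indocin FPKM + 1)/(DMSO FPKM + 1)), a scale on which low genes show less than their fold in FPKM. FPKM added up to 617510 with DMSO and 583096 with Indocin, and the number of reads was unknown. FPKM is a share of a library, so fewer cells expressing a gene and less of its RNA per cell cannot be told apart. The 7 prostate luminal markers examined, KLK3 and KLK2 among them, stood between 58.1 and 520.3 FPKM, and their sum was 1770 FPKM with DMSO and 1438 FPKM with Indocin. The 3 basal and 2 neuroendocrine markers stayed under 0.7 FPKM. Of the 5 fibroblast markers COL1A2, COL3A1 and DCN were listed at 0 in both libraries. With DMSO and Indocin, PDGFRB stood at 0.185 and 0.245 FPKM and COL1A1 at 4.54 and 4.802 FPKM. Of the 3 leukocyte markers CD3E was at 0, PTPRC stood at 0 and 0.023 FPKM, and CD68 at 6.51 and 5.86 FPKM. Of the 3 endothelial markers PECAM1 was at 0, CDH5 stood at 0.006 FPKM in both, and VWF at 0.395 and 0.652 FPKM. The part of the lower luminal markers in the results below was not tested.

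Most of the cholesterol genes were higher in the Indocin library. Of the 28 members with a mean of at least 1 FPKM, 25 had a log2 ratio above 0 (89.3%), against 44.8% of the 11968 genes that met this minimum. At least 1.5-fold higher were 5 members, INSIG1, LPIN1, SREBF2, MVK and FDFT1, which is 17.9% of the 28 against 2.19% of all tested genes. None was as much lower, where the background was 0.752%. A ratio of FPKM + 1 at least 25% above equality was reached by 12 members (42.9%, background 6.91%), and none was lower by the same factor (background 7.29%). The median log2 ratio was 0.30 over the members and -0.03 over all tested genes, whose quartiles were -0.15 and 0.11. The remaining member, the sterol carrier STARD4, was under the minimum and is given with the transport genes.

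**Figure D1:**
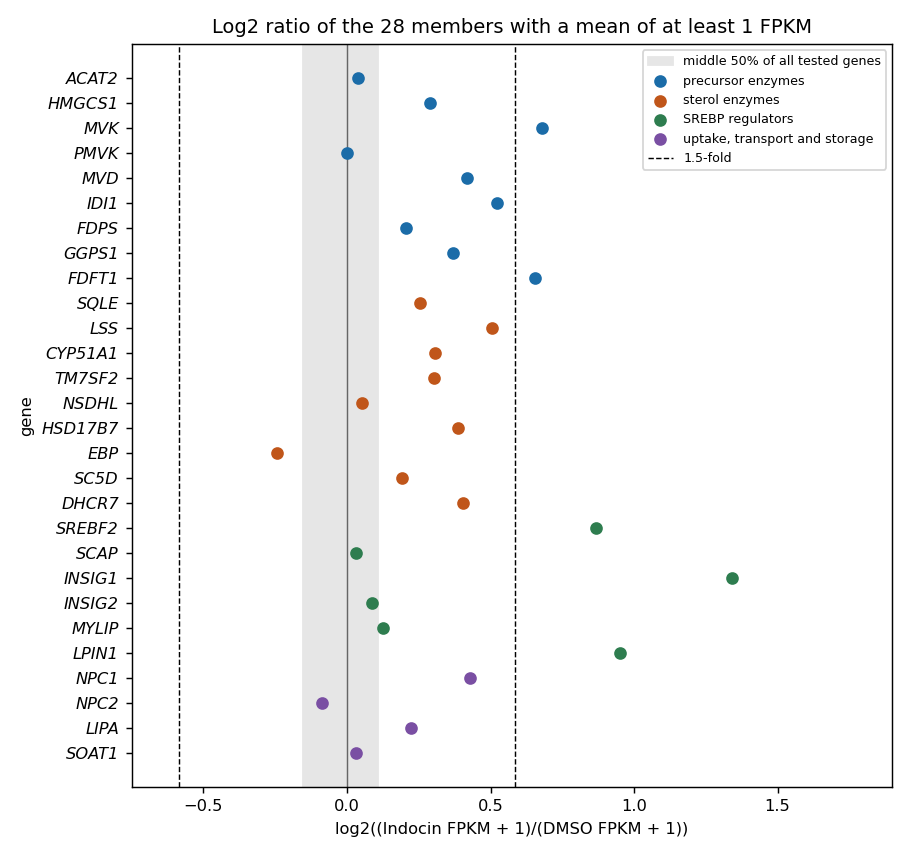
Log2 ratio of Indocin over DMSO FPKM, each plus 1, for the 28 members with a mean of at least 1 FPKM (points, 1 library per group, coloured by role), with the middle 50% of all tested genes shaded and 1.5-fold dashed. INSIG1 (1.34) lies farthest to the right, EBP (-0.24) farthest to the left, and 20 of the 28 members lie to the right of the shaded band.

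The 6 regulators fell into a high set and a set near 0, with no value between 0.13 and 0.87, so their median of 0.50 describes no single gene. INSIG1, the ER anchor that holds SCAP back, stood at 37.3 FPKM with DMSO and 95.8 FPKM with Indocin. This was 2.57 times the DMSO value, the largest of the members with a mean of at least 1 FPKM, and its rank was 50 of 11968 genes. INSIG2, its close relative with the same function, stood at 9.85 and 10.5 FPKM (0.09). The level of INSIG1 was thus 3.78 times that of INSIG2 with DMSO and 9.11 times with Indocin.

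SREBF2, which encodes SREBP2, stood at 39.8 FPKM with DMSO and 73.3 FPKM with Indocin (1.84 times, log2 ratio 0.87). SCAP, the escort protein of both SREBPs, stood at 47.7 and 48.7 FPKM (0.03). SREBF2 was therefore listed below SCAP in the DMSO library (0.834 of its level) and above it in the Indocin library (1.503 times). INSIG1 crossed SCAP likewise, from 0.781 of its level to 1.97 times.

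LPIN1 encodes lipin, a phosphatidate phosphatase of triglyceride synthesis that also acts in the nucleus as a regulator of SREBP activity. It stood at 10.5 and 21.2 FPKM (2.02 times, 0.95). MYLIP, a ubiquitin ligase that marks lipoprotein receptors for degradation and is induced by the sterol receptor LXR, stood at 7.16 and 7.91 FPKM (0.13). INSIG1, SREBF2 and LPIN1 made up the high set, and SCAP, INSIG2 and MYLIP each differed by less than 25%.

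**Figure D2:**
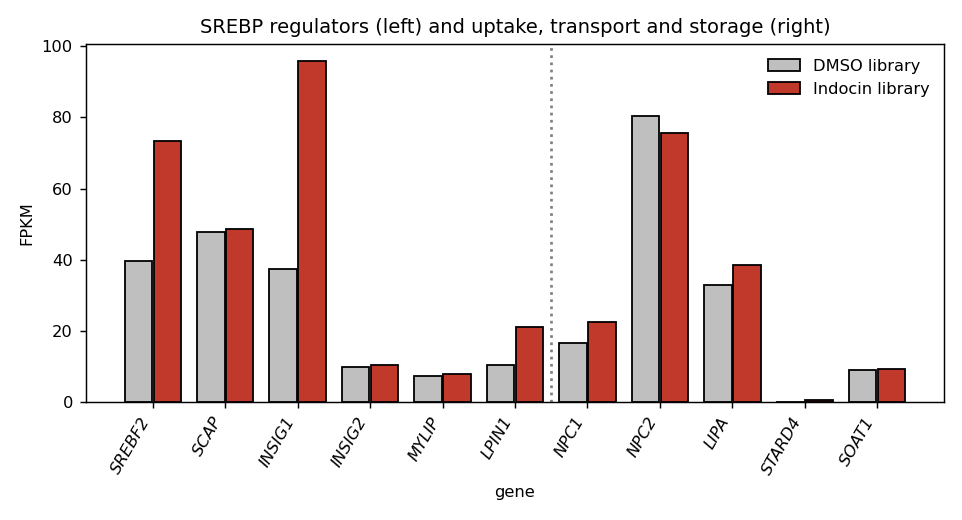
FPKM (vertical axis) of the 6 SREBP regulators, left of the dotted line, and of the 5 genes of uptake, transport and storage, right of it, in the DMSO library (grey) and the Indocin library (red), 1 library each and so without error bars. SREBF2, INSIG1 and LPIN1 are the regulators whose bars differ most, and the bars of SCAP (47.7 and 48.7) are nearly level.

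The promoters of INSIG1, the regulator with the largest ratio, and of SREBF2 are shown because both genes lie within the SREBP circuit they control. The windows are RefSeq sequences of GRCh38.p14, plus strand, from 250 bases before to 50 after a gene start, chr7:155297628-155297927 for INSIG1 and chr22:41832855-41833154 for SREBF2. Capitals mark the core of the sterol regulatory element, TCACNCCAC, and the CCAAT box bound by NF-Y, a frequent partner of SREBPs, each searched on both strands, so that a box on the other strand reads ATTGG.
INSIG1: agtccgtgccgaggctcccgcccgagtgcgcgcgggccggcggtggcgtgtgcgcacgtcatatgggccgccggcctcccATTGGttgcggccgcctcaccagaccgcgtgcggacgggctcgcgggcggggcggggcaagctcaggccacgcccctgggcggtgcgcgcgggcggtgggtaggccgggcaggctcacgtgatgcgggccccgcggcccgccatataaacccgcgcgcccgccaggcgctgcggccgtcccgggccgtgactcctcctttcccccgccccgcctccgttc
SREBF2: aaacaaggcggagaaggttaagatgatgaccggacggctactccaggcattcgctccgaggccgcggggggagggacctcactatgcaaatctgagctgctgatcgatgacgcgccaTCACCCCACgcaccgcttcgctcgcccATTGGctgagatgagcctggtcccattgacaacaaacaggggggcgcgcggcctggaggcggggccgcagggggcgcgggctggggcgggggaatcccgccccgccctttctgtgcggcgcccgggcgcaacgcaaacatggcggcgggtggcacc

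The window of SREBF2 held the sterol element core as TCACCCCAC, starting 133 bases before the gene start, and a CCAAT box on the other strand starting 106 bases before it. The 2 matches did not overlap. The INSIG1 window held a CCAAT box 170 bases before the start and no match to the sterol element core. Only exact matches to the core were counted, with any base allowed at N, so elements that differ from it in a letter would be missed. These matches are letters in a window and do not show binding.

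The 18 enzymes were followed in pathway order. Their FPKM summed to 719.9 with DMSO and 867.4 with Indocin, 1.205 times as much. Of the 18, 16 had ratios above 0, against 44.8% of all tested genes, and 2 (PMVK and EBP) were below 0. Among the 16, ACAT2 (0.04) and NSDHL (0.05) were close to 0. At least 1.5-fold higher were 2, MVK and FDFT1 (background 2.19%), and 6 more were at least 25% but less than 1.5-fold higher. Together 8 of the 18 were at least 25% higher, against 6.91% of all tested genes. The median was 0.37 for the 9 enzymes listed up to squalene and 0.30 for the 9 after it. The first 9 include GGPS1, which lies on a side branch, and the median of 0.37 is its own ratio. The differences were thus spread over both stretches of the pathway, with neighbouring steps differing from each other.

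**Figure D3:**
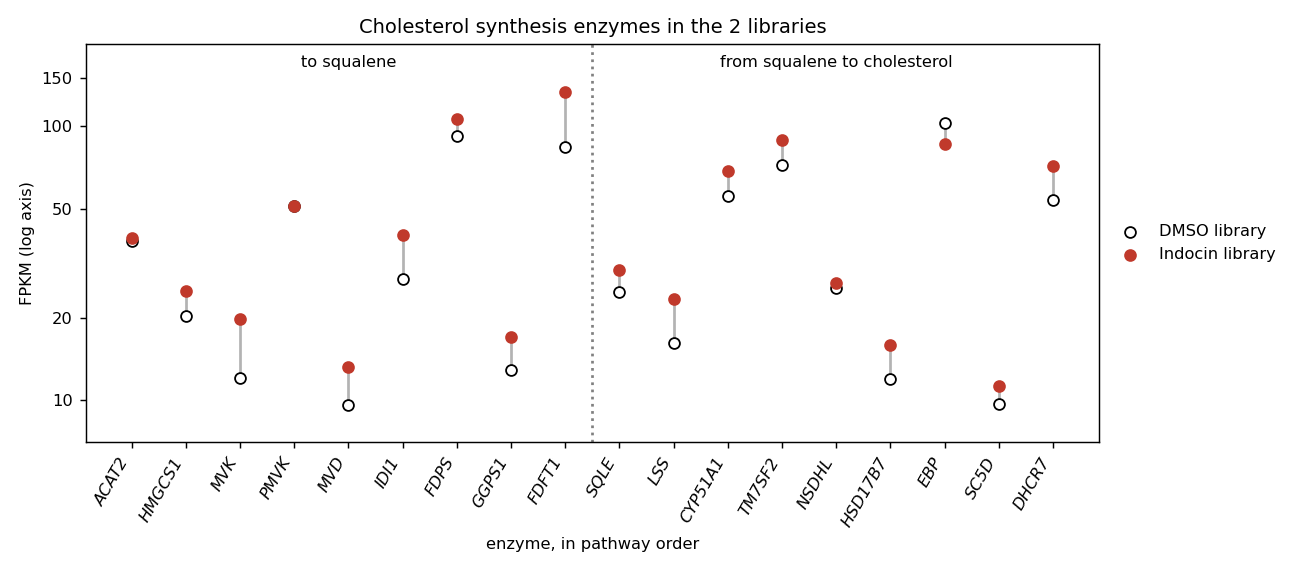
FPKM on a log axis for the 18 synthesis enzymes in pathway order, in the DMSO library (open circles) and the Indocin library (red circles), 1 library each, with a dotted line between the steps up to squalene and those after it. GGPS1, of a side branch, is placed among the steps up to squalene. The circles are farthest apart for MVK (12.0 and 19.8) and FDFT1 (84.2 and 133.0), coincide for PMVK (51.2 in both), and are inverted for EBP (102.5 and 86.5).

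The first steps were unlike each other. ACAT2, the cytosolic thiolase that joins acetyl-CoA units, stood at 37.9 FPKM with DMSO and 39.0 FPKM with Indocin (0.04). HMGCS1, HMG-CoA synthase, stood at 20.3 and 24.98 FPKM (0.29), just short of 25% on this scale.

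The mevalonate kinases and the decarboxylase that follow gave unequal values. MVK, mevalonate kinase, stood at 12.0 FPKM with DMSO and 19.8 FPKM with Indocin (1.65 times, 0.68), the largest ratio among the enzymes. PMVK, phosphomevalonate kinase, which takes the product of MVK, was listed at 51.2 FPKM in both libraries. MVD, the diphosphomevalonate decarboxylase, stood at 9.58 and 13.1 FPKM (0.42). The step with the highest level of these 3 was the one with no difference.

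IDI1, the isomerase that supplies the allylic isoprene unit, stood at 27.6 and 40.0 FPKM (0.52) and was the member closest below 1.5-fold, as FDFT1 was the closest above it. FDPS, farnesyl diphosphate synthase, stood at 92.0 and 106.2 FPKM (0.20). At the branch after it, GGPS1, which lengthens farnesyl diphosphate for protein prenylation, stood at 12.9 and 17.0 FPKM (0.37). FDFT1, squalene synthase, which commits farnesyl diphosphate to sterols, stood at 84.2 and 133.0 FPKM (1.58 times, 0.65). FDFT1 lay below FDPS in the DMSO library (0.915 of its level) and above it in the Indocin library (1.252 times). Its 48.8 FPKM made up 33.1% of the difference in the summed enzymes, and without FDFT1 the sum was 1.16 times the DMSO value.

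After squalene, no enzyme reached 1.5-fold. SQLE, squalene epoxidase, stood at 24.8 FPKM with DMSO and 29.7 FPKM with Indocin (0.25), and LSS, lanosterol synthase, which closes the sterol rings, at 16.2 and 23.4 FPKM (0.51). LSS had the largest ratio of these 9. The lanosterol demethylase CYP51A1 stood at 55.4 and 68.9 FPKM (0.31) and the sterol reductase TM7SF2 at 72.2 and 89.3 FPKM (0.30). Both were just short of 25%.

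The dehydrogenase NSDHL and the ketoreductase HSD17B7 act together in removing the methyl groups of the sterol nucleus. NSDHL stood at 25.7 and 26.7 FPKM (0.05), and HSD17B7 at 11.9 and 15.9 FPKM (0.39). HSD17B7 has a near-identical pseudogene, HSD17B7P2, listed at 0.802 and 1.42 FPKM, with which it can share reads. EBP, the sterol isomerase of the next step, stood at 102.5 FPKM with DMSO and 86.5 FPKM with Indocin (-0.24), the lowest ratio of the 28 members. SC5D, the desaturase after it, stood at 9.67 and 11.2 FPKM (0.19). DHCR7, which reduces dehydrocholesterol to cholesterol, stood at 53.9 and 71.6 FPKM (0.40).

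The order of the enzymes by level changed at the top, and lower down only neighbours changed places. EBP was the highest of the 18 with DMSO and the fourth highest with Indocin, while FDFT1 went from the third place to the first and FDPS stayed second. MVD and SC5D were the 2 lowest in each. The highest enzyme was 10.7 times the lowest with DMSO and 11.9 times with Indocin.

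Promoter windows of MVK, NSDHL and EBP are shown because they hold several CCAAT boxes and the genes differ in their ratios (0.68, 0.05 and -0.24). They lie at chr12:109573544-109573843, chrX:152830813-152831112 and chrX:48521558-48521857 of GRCh38.p14, plus strand, with the boxes in capitals.
MVK: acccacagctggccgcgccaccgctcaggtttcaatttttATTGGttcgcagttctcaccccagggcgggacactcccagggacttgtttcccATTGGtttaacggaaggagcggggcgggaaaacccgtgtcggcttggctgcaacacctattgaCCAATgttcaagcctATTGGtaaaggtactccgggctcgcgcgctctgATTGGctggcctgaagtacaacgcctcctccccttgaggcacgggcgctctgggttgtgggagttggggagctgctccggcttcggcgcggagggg
NSDHL: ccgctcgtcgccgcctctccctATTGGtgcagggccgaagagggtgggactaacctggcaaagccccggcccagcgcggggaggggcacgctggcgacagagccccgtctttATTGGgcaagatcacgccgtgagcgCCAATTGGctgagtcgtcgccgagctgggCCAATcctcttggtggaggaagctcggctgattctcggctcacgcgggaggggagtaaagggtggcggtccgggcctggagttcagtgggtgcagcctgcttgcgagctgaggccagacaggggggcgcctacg
EBP: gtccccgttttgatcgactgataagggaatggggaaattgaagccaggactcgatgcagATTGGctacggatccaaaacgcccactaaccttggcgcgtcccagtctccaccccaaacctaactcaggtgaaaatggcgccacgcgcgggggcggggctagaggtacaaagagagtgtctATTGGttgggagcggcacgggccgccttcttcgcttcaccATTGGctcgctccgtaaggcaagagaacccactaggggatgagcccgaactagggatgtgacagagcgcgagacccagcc

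MVK and NSDHL held 5 boxes each, 2 of the NSDHL boxes overlapping as CCAATTGG, and EBP held 3. None of these windows held an exact match to the sterol element core. The table of windows used here held 26 of the 29 members, and had no row for ACAT2, FDFT1 and SQLE. A CCAAT box was in a window of 20 of the 26 members (76.9%), against 43.7% of 8908 tested genes and 39.7% of all 27305 genes with a window. Counted by window, it was in 23 of 39 (59.0%) against 34.6% of all 35116. An exact match to the sterol element core was in 1 of the 26, that of SREBF2 (3.85%). The shares were 1.49% of tested genes, 1.39% of all genes and 1.13% of all windows. Sterol elements with other letters were not searched for, so the members without a match are not shown to lack one. The core of the amino acid and stress response element, TGATGNAA, was in none of the 26 (2.53% of tested genes, 4.46% of all genes, 3.62% of all windows). Among the members tested, the 19 with a CCAAT box had log2 ratios from -0.24 to 1.34 (median 0.30), and the 6 without one from 0.00 to 0.95 (median 0.20), so the ranges overlapped. LPIN1 was among those without a box in any of its windows.

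Genes of cholesterol uptake from lysosomes, transport and storage differed less, with a median of 0.13 over 4 members and none past 1.5-fold. That median was 0.22 with no minimum on low values, which adds STARD4, and 0.20 with both libraries scaled to equal upper quartiles. NPC1, the lysosomal membrane protein that exports cholesterol, stood at 16.5 FPKM with DMSO and 22.5 FPKM with Indocin (0.43). NPC2, the soluble protein that hands cholesterol to NPC1, stood at 80.4 and 75.7 FPKM (-0.09), so its level went from 4.89 to 3.37 times that of NPC1. LIPA, the lysosomal acid lipase that frees cholesterol from its esters, stood at 32.8 and 38.4 FPKM (0.22). SOAT1, which esterifies cholesterol for storage in droplets, stood at 9.04 and 9.27 FPKM (0.03).

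STARD4, a cytosolic sterol carrier and known SREBP target, was listed at 0.110 FPKM with DMSO and 0.420 FPKM with Indocin. This is 3.81 times in FPKM and 0.35 on the log2(FPKM + 1) scale. Both values are under the minimum, the reads behind them are unknown, and STARD4 enters no count of ratios above.

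The other genes of the pathway came from lists of its partners. The background for their counts is that of all tested genes, with 44.8% above 0, 2.19% at least 1.5-fold higher and 0.752% as much lower. Of 3 further genes of sterol synthesis all had ratios above 0, none reached 1.5-fold and the median was 0.17. The methyl sterol oxidase MSMO1, which works with NSDHL, stood at 18.2 and 27.7 FPKM (0.58), just short of 1.5-fold on this scale. The scaffold C14orf1 had a ratio of 0.17, and LBR, a sterol reductase of the nuclear envelope, stood at 32.0 and 32.3 FPKM (0.01).

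The machinery that carries and cuts SREBPs had a median ratio near 0. Of 16 genes for the COPII coat, the site proteases and the ligases of ER quality control, with SREBF1, 1 was past 1.5-fold on the higher side and none on the lower. The median was 0.00. The gene past 1.5-fold was SREBF1, at 89.1 FPKM with DMSO and 192.0 FPKM with Indocin (1.10), a larger ratio than that of SREBF2 (0.87). The COPII GTPase SAR1A (-0.21) and the coat subunit SEC24A (-0.17) came next in size. SREBF1 was 2.24 times the level of SREBF2 with DMSO and 2.62 times with Indocin. The proteases MBTPS1 and MBTPS2, which cut SREBPs in the Golgi and were named outside the rule for examples, had ratios of 0.09 and -0.03.

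Of 11 partners of sterol uptake and transport 4 had ratios above 0 and 7 below, where 44.8% of all tested genes were above 0. Their median was -0.13, against -0.03 over all tested genes. The lipoprotein receptor VLDLR (4.11 and 9.04 FPKM, 0.98) was the only one past 1.5-fold. The sterol-binding ER protein TMEM97 stood at 71.9 and 54.2 FPKM (-0.40), and SCARB1, a receptor for high-density lipoprotein, had a ratio of -0.21. Among 4 tested genes of LXR and efflux, the sterol exporter ABCG1 (5.65 and 10.6 FPKM, 0.81) was past 1.5-fold, with the phospholipid enzyme LPCAT3 at 0.34, the receptor NR1H3 itself at 0.13 and a list median of 0.23.

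The branches that use isoprenyl diphosphates for other ends lay near the background. None of 12 genes was past 1.5-fold and the median was -0.06, with the prenylcysteine methyltransferase ICMT (50.3 and 38.1 FPKM, -0.39), the farnesyltransferase subunit FNTB (-0.25) and PDSS1 of ubiquinone synthesis (-0.19) the farthest from 0. Of 5 oxysterol genes 2 were tested, HSD3B7 (-0.08) and CYP7B1 (0.08).

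Fatty acid genes known as SREBP targets were also higher in the Indocin library, 9 of 10 of them with a ratio above 0. At least 1.5-fold higher were 4 of the 10 (background 2.19%). These were SCD (1.41), ME1 (1.09), fatty acid synthase FASN (286.5 and 537.7 FPKM, 0.91) and the desaturase FADS2 (331.5 and 535.3 FPKM, 0.69). ELOVL6 was lower (-0.21), and ACLY (0.06) and GPAM (0.07) were near 0, all named outside the rule for examples. The median was 0.40, against 0.31 for the 18 cholesterol enzymes. Whether these medians differ between cultures could not be tested with 1 library per group.

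**Figure D4:**
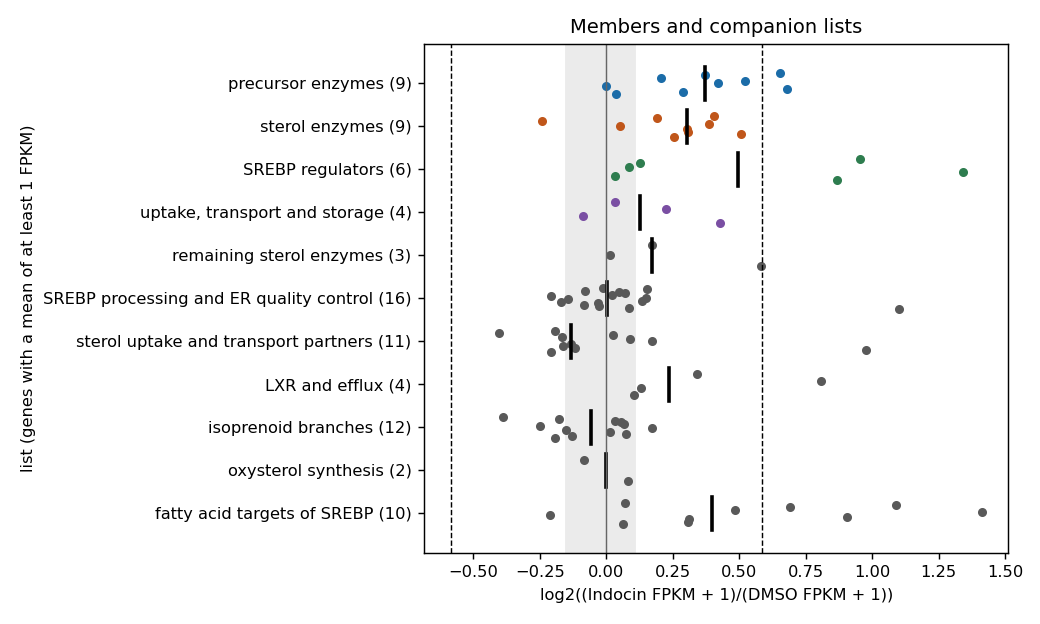
Log2 ratio of Indocin over DMSO FPKM, each plus 1, for members (coloured) and partner genes (grey) with a mean of at least 1 FPKM, by list with the number of genes, black bars at the list medians, the middle 50% of all tested genes shaded and 1.5-fold dashed. The enzymes and fatty acid targets have medians of 0.30 to 0.40, while SREBP processing (0.00) and isoprenoid branches (-0.06) lie within the shaded band.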

How the data were processed

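One stranded mRNA library per group was prepared from C4-2B MDVR cells, per the labels' protocols. The authors deposited FPKM per gene symbol, per the file headers. Cuffnorm, Cufflinks, StringTie, TopHat and bcl2fastq, and the builds hg19 and GRCh37, are named in the submitters' processing notes. The annotation, the strand setting and how each tool was used were not stated there, so overlapping antisense genes and close copies may share reads.

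Ratios were computed with Python 3.11.15, numpy 2.4.6 and pandas 2.3.3 as log2 of Indocin over DMSO, with a pseudocount of 1 FPKM, over genes whose mean FPKM reached 1. Short RNA genes (2039 symbols) were left out by symbol. Counts used 1.5-fold and 25%. The calculation was tested on simulated data. Promoters came from RefSeq (GRCh38.p14) by symbol, and no coordinates of different builds were mixed.

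The members, roles, partner lists and motifs were chosen with earlier results of these data known. All members are named, and of each partner list up to 3 genes with the largest ratios in size and any gene past 1.5-fold. Some genes of the pathway are not reported here. Alternatives were other pseudocounts, minima and scalings.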

Additional observations from a re-analysis of the deposited data

How the results depend on the processing

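With pseudocounts of 0.1 and 5 FPKM, no minimum or one of 5 FPKM, ratios centred on the median of all tested genes, equal upper quartiles, or equal sums (short RNA genes and BCYRN1 left out), the number of members at least 1.5-fold higher lay between 4 and 6 (1.05% to 3.51% of all tested genes) and the number at least 25% higher between 9 and 16 (3.125% to 10.04%). The 9 were counted with 5 FPKM added, where the background was 3.125%, and the 16 with equal upper quartiles, where it was 10.04%. None was as much lower in these settings. MVK (0.55) was under 1.5-fold with 5 FPKM added, and IDI1 (0.59) past it with equal upper quartiles. The median ratio of the members lay between 0.27 and 0.37. The scalings moved the ratios by about 0.07 at most. PMVK changed sign when centred (0.0246), with equal upper quartiles (0.0710) and with equal sums (0.0404). No other member changed sign. No paired analysis was possible because each group had 1 library, and no library could be left out. The read depth is unknown, so the counting error of low values such as those of STARD4 could not be given. Identity of the INSIG proteins was not computed.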

Other observations

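Some cholesterol genes start head to head with another gene. In the RefSeq windows of GRCh38.p14, MVK and MMAB, which encodes an enzyme of cobalamin metabolism, start 290 bases apart on opposite strands. MMAB stood at 11.3 FPKM with DMSO and 18.7 FPKM with Indocin, with a log2 ratio of 0.67 beside 0.68 for MVK, so both genes of the pair were past 1.5-fold. MMAB and the other partners were looked up after the ratios of the members had been seen, within 1000 bases of a member's start.

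The other pairs with values in both libraries were mixed. CETN2, a centrosome gene 306 bases from NSDHL, stood at 48.8 and 51.5 FPKM (0.08, beside 0.05). ISCA2, an iron-sulfur cluster gene beside NPC2, stood at 42.8 and 39.3 FPKM (-0.12, beside -0.09). The noncoding MCM3AP-AS1, 457 bases from LSS, was listed at 2.96 and 2.94 FPKM (-0.01), while LSS had a ratio of 0.51. SNAI3-AS1, 282 bases from MVD, stood at 0.523 and 1.16 FPKM (0.51, beside 0.42), under the minimum mean. Whether their reads were kept apart by strand was not stated.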
